A study of Mus musculus with 48 samples.

Results

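The liver nuclei of wild-type mice were compared between the first hours of light, when food had been taken away, and the end of the feeding night. Nuclear RNA libraries from zeitgeber time (ZT, hours after lights on) ZT2, ZT4 and ZT6, called early light here, were set against those from ZT20, ZT22 and ZT0, called late night. These are 6 of the 48 libraries of the series, chosen by genotype, RNA fraction and time from their labels and not by any measured value. In the nuclei of early light the intron signal of the REV-ERB genes Nr1d1 and Nr1d2 was higher by 3.46 and 2.99 on the log2 scale. Of 30 genes of fatty acid oxidation and ketogenesis, 13 were higher in every library than in any late night library. So were 11 of 23 genes of autophagy and mTOR signalling, against 11.1% of all genes tested on introns. Intron signal of all 23 genes of cholesterol synthesis and uptake was lower on average, and that of the desaturase Scd1 was lower by 3.43. Between 3 libraries and 3, none of these genes passed the limma test of the windows adjusted over all genes, so most of what follows is given as values and as windows that do or do not overlap.

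The early light group holds 3 libraries of nuclear RNA from livers of wild-type C57BL/6 mice taken at ZT2, ZT4 and ZT6, and the late night group 3 such libraries from ZT20, ZT22 and ZT0. At 14 weeks of age, the mice had been kept in cycles of 12 h light and 12 h dark, with food only at night for 1 week before. Each library came from a pool of 2 mice, and no time was sampled more than once, so the 3 neighbouring times of a window stand in for replicates. Real changes within a window therefore count as spread, and a p-value reflects how much pools taken 2 h apart varied. The column names mark ZT14 to ZT22 as fed but not ZT0, which lies at lights on. Light and food change together in this design and cannot be told apart. The same pools gave total RNA libraries, and Nono-/- mice, which lack a working gene for the nuclear RNA-binding protein NONO, gave nuclear libraries at the same times under the same feeding.

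Mammalian liver keeps time with a transcriptional loop in which BMAL1 (encoded by Arntl) pairs with CLOCK or NPAS2 and binds E-boxes of the Per, Cry, Nr1d1 and Nr1d2 genes. PER and CRY proteins block that pair, and the REV-ERB proteins made from Nr1d1 and Nr1d2 repress Arntl, Npas2, Cry1 and Nfil3 through ROR elements, where the ROR receptors activate. Feeding adds a second rhythm. After a meal, insulin and glucose favour synthesis of glycogen, fatty acids and cholesterol, and when food is gone glucagon, fatty acids and the receptor PPARA favour fat oxidation, ketone production and autophagy. Intron signal in nuclei comes mostly from transcripts that are not yet spliced and follows transcription closely in time, whereas exon signal also holds spliced RNA.

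Values are FPKM, fragments scaled to the counted length of a gene and to the reads of the library, over the introns and separately over the exons of each gene. They run in the order ZT2, ZT4, ZT6 for early light and ZT20, ZT22, ZT0 for late night. A log2 change is early light minus late night of log2 FPKM after scaling each library to the median gene and adding a small constant, with its standard error (SE, n = 3 libraries each). Windows are said not to overlap when the 3 scaled values of one lie all above or all below the 3 of the other.

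The 6 libraries held 14.7 to 19.7 M reads. Of these reads, introns took 73.03%, 73.6% and 73.6% in early light, against 70.5%, 68.4% and 75.4% in late night. Exons took 17.2%, 16.3% and 16.99% in early light, against 20.4%, 22.7% and 16.03% in late night. The exon share was highest in the libraries of ZT20 and ZT22, above the 15.2% to 18.7% of the other 10 wild-type nuclear libraries. The summed exon FPKM of 11 hepatocyte markers was 1924, 1687 and 1837 in early light, against 2501, 3033 and 1787 in late night, and Alb, the albumin gene, had 819 to 1420 FPKM, values of a hepatocyte-rich tissue. Endothelial markers summed to 40.9, 41.9 and 53.1 in early light, against 72.4, 83.8 and 39.6 in late night. Stellate cell markers summed to 26.2, 24.4 and 27.6 in early light, against 40.99, 55.9 and 27.5 in late night. Both lists were highest at ZT20 and ZT22 as well. Kupffer cell markers summed to 24.2, 30.0 and 40.3 in early light, against 39.3, 58.2 and 27.02 in late night. Cholangiocyte markers summed to 10.4, 9.25 and 11.6 in early light, against 11.7, 17.8 and 9.56 in late night. Lymphocyte markers summed to 3.55, 2.48 and 4.02 in early light, against 4.17, 5.03 and 4.57 in late night. Erythroid markers summed to 6.99, 4.03 and 4.76 in early light, against 8.57, 8.74 and 7.98 in late night. As deposited, without scaling, neither the lymphocyte nor the erythroid sums overlapped. Most of the erythroid sum came from Alas2, at 3.80 to 8.12 FPKM, while Hba-a1 and Hba-a2 were each at 0 in 4 libraries. Ptprc, at 1.84 to 3.67 FPKM, was the only lymphocyte marker tested on exons, and its scaled windows overlapped. Neutrophil markers summed to 1.33, 0.484 and 2.48 in early light, against 0.354, 0.846 and 2.33 in late night, with Ly6g at 0 in 5 of the 6 libraries and Elane at 0 in 4. An exact 2-sided permutation test of 13 such library measures gave a smallest adjusted p of 0.473. With a smallest p possible of 0.1, no measure could pass the threshold of 0.05, so this test does not show that the windows were alike. The part of the exon share and of these markers in the results below was not tested, and main counts of gene lists are given without ZT20 and ZT22 too. That setting, added after the data were seen, leaves ZT0 as the only late night library, so windows apart then means above or below 1 value, as for 26.6% (higher) and 25.7% (lower) of all genes. In whole liver nuclei, fewer cells of a type and less RNA per cell cannot be told apart. Total RNA of the same livers did not show the same marker changes. Its median log2 exon change was 0.45 for Kupffer cell markers (11 higher, 0 lower), where nuclear exons gave -0.17. For endothelial markers it was 0.11 (8 higher, 5 lower) against -0.27, and for stellate cell markers -0.04 (4 higher, 4 lower) against -0.37.

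Across all genes, 12001 were tested by their introns. With limma and Benjamini-Hochberg adjustment, 3 genes rose (0.025%) and 1 fell (0.00833%) at an adjusted p under 0.05, and 1747 (14.6%) had an unadjusted p under 0.05. Windows did not overlap for 1334 genes that were higher in early light (11.1% of the genes tested) and 1159 that were lower (9.66%). Among 10877 genes tested by exons, limma called 2 higher (0.0184%) and 1 lower (0.00919%), 1066 (9.8%) had an unadjusted p under 0.05, and windows did not overlap for 939 genes that were higher (8.63%) and 727 that were lower (6.68%). On exons that split depends on the scaling. Without it the median gene was lower by 0.23 on the log2 scale (introns 0.05), and 318 genes (2.92%) then had higher and 1427 (13.1%) lower windows, against 1019 (8.49%) and 1327 (11.1%) on introns. A second reading, added after the data were seen, drew a daily curve with periods of 24 h and 12 h through all 12 wild-type nuclear libraries and compared the curve's mean in the same windows. It called 26 genes higher (0.217%) and 48 lower (0.4%) on introns, and 21 higher (0.193%) and 30 lower (0.276%) on exons. Its limma p, adjusted over all genes, is given as the daily-curve adjusted p.

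Only 1 gene was called on introns and on exons alike. B930025P03Rik, annotated by RefSeq as a long noncoding RNA (chr8:10870422-10882454, minus strand of mm10), had intron signal of 1.55, 1.35 and 1.49 FPKM in early light, against 0.108, 0.114 and 0.154 FPKM in late night. The windows lay far apart, on 733 reads in early light and 57 in late night. The intron signal rose by 3.15 ± 0.17 SE (limma adjusted p = 0.00418), and the exon signal, 2.74, 2.4 and 2.9 FPKM in early light, against 0.157, 0.111 and 0.138 FPKM in late night, rose by 3.73 ± 0.24 SE (limma adjusted p = 0.00409). Total RNA of the same livers showed 1.46, 0.771 and 0.914 FPKM in early light, against 0.028, 0.17 and 0.08 FPKM in late night over its exons. Nono-/- nuclei showed 0.95, 0.918 and 1.04 FPKM in early light, against 0.092, 0.077 and 0.092 FPKM in late night over its introns. The intron call was lost without ZT6 (log2 change 3.16), with the exon share as a covariate (2.99) and without ZT20 and ZT22 (2.88). The other 3 intron calls rest on few reads. Hspb2, a small heat shock protein gene (chr9:50751072-50752354, minus strand of mm10), was listed at 0.240, 0.229 and 0.386 FPKM in early light and at 0 in each late night library (7 reads and 0 reads). Lppos (chr16:24392556-24393655, minus strand of mm10) was listed at 0.216, 0.414 and 0.232 FPKM in early light and at 0 in late night (4 reads and 0 reads). A430035B10Rik (chr6:8507059-8509161, minus strand of mm10) was listed at 0 in early light and at 0.727, 0.411 and 0.319 FPKM in late night (0 reads and 4 reads). On exons, Mir7675 inside Smc6 (6 reads and 0 reads) and Mir6918 inside Nipsnap1 (0 reads and 8 reads) were called, and reads of such small genes cannot be told from those of their hosts.

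The REV-ERB genes were among the widest changes of genes with ample reads. Of 17 core clock genes tested on introns, 2 were higher and 3 lower with windows that did not overlap. These are 11.8% and 17.6%, against 11.1% and 9.66% of all genes, so the higher count was near that share. The median change of the list was -0.12, against -0.01 over all genes. The daily curve called 2 higher and 3 lower (0.217% and 0.4% of all genes). Nr1d1 (chr11:98767932-98775377, minus strand of mm10), which encodes the repressor REV-ERB alpha, had intron signal of 1.33, 3.81 and 5.47 FPKM in early light, against 0.194, 0.233 and 0.294 FPKM in late night. It was higher at each later time of early light, flat through late night, and the change was 3.46 ± 0.45 SE (limma adjusted p = 0.125) (daily-curve adjusted p = 0.000366). Part of Nr1d1 overlaps Thra on the other strand, whose reads were not separated. Nr1d2, the gene of REV-ERB beta (chr14:18204056-18239106, minus strand of mm10), overlaps no other gene of the table and had 2.24, 4 and 5.18 FPKM in early light, against 0.385, 0.294 and 0.658 FPKM in late night. Its change was 2.99 ± 0.36 SE (limma adjusted p = 0.119) (daily-curve adjusted p = 0.000366). Exons gave similar changes. Nr1d2 exons had 5.44, 10.03 and 12.4 FPKM in early light, against 1.68, 0.751 and 1.48 FPKM in late night (log2 change 2.96), and Nr1d1 exons 1.35, 5.46 and 5.99 FPKM in early light, against 0.329, 0.173 and 0.25 FPKM in late night (3.60).

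The activator Npas2, a partner of BMAL1, had 1.6, 0.152 and 0.015 FPKM in early light, against 1.89, 2.16 and 2.15 FPKM in late night. It was still high at ZT2, and the 3 late night libraries lay close together (log2 change -2.87 ± 1.07 SE, limma adjusted p = 0.317, daily-curve adjusted p = 0.0175). Cry1, a repressor of the loop, had 0.822, 0.407 and 0.197 FPKM in early light, against 3.38, 1.92 and 1.55 FPKM in late night, so that every early light library lay below every late night one. The change was -2.21 ± 0.51 SE (limma adjusted p = 0.243), with a daily-curve adjusted p of 0.0208. Cry1 exons, 1.93, 0.54 and 0.474 FPKM in early light, against 8.53, 5.5 and 3.21 FPKM in late night, gave a daily-curve adjusted p of 0.0083.

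Arntl itself had 2.25, 0.838 and 0.125 FPKM in early light, against 2.1, 1.93 and 2.26 FPKM in late night. The value at ZT2 was as high as in late night, so the windows overlapped, and the low value at ZT6 made the spread of early light wide (log2 change -1.54 ± 0.86 SE, limma adjusted p = 0.441, daily-curve adjusted p = 0.0382). Clock had 2.8, 1.84 and 0.981 FPKM in early light, against 2.75, 2.66 and 2.45 FPKM in late night. The Per genes did not share a direction. Per1 had 0.931, 1.24 and 1.37 FPKM in early light, against 1.59, 0.291 and 1.7 FPKM in late night. Per2 had 1.08, 1.05 and 2.03 FPKM in early light, against 2.92, 1.64 and 1.21 FPKM in late night. Per3 had 0.08, 0.561 and 2.39 FPKM in early light, against 0.828, 0.427 and 0.242 FPKM in late night. Windows overlapped for all of them, as for Cry2, Rora and Ciart, an inhibitor of CLOCK and BMAL1. With ZT20 and ZT22 left out, 3 core clock genes were higher and 4 lower (26.6% and 25.7% of all genes), with a median of 0.11. Without ZT0 and ZT2, the times beside lights on, 2 core clock genes were higher and 6 lower (26.3% and 26.7% of all genes).

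Factors downstream of the loop varied within the early light window more than between windows. None of 10 tested genes of that list had windows apart (20.8% of all genes in either direction), and the list's median was 0.21. The sign of that median was not stable. It was -0.08 over the 9 genes that passed a filter 4 times stricter, and -0.13 on exons. Dbp, a PAR bZIP activator driven from E-boxes, had 0.663, 2.07 and 8.15 FPKM in early light, against 0.921, 1.14 and 0.566 FPKM in late night. Its relative Tef had 2.4, 6.41 and 11.3 FPKM in early light, against 5.01, 1.92 and 1.44 FPKM in late night. Both had reached at ZT6 values above any late night library, while ZT2 was still low (daily-curve adjusted p = 0.0652 for Dbp, which overlaps Sphk2 on the other strand, and 0.0389 for Tef). Nfil3, the repressor that competes with them for D-boxes, had 4.67, 1.29 and 0.404 FPKM in early light, against 3.05, 4.17 and 5.91 FPKM in late night (daily-curve adjusted p = 0.0251). It was at late night level at ZT2 and below every late night library at ZT4 and ZT6. Without ZT20 and ZT22, 4 genes of the list were higher and 2 lower, against 26.6% and 25.7% of all genes.

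**Figure D1:**
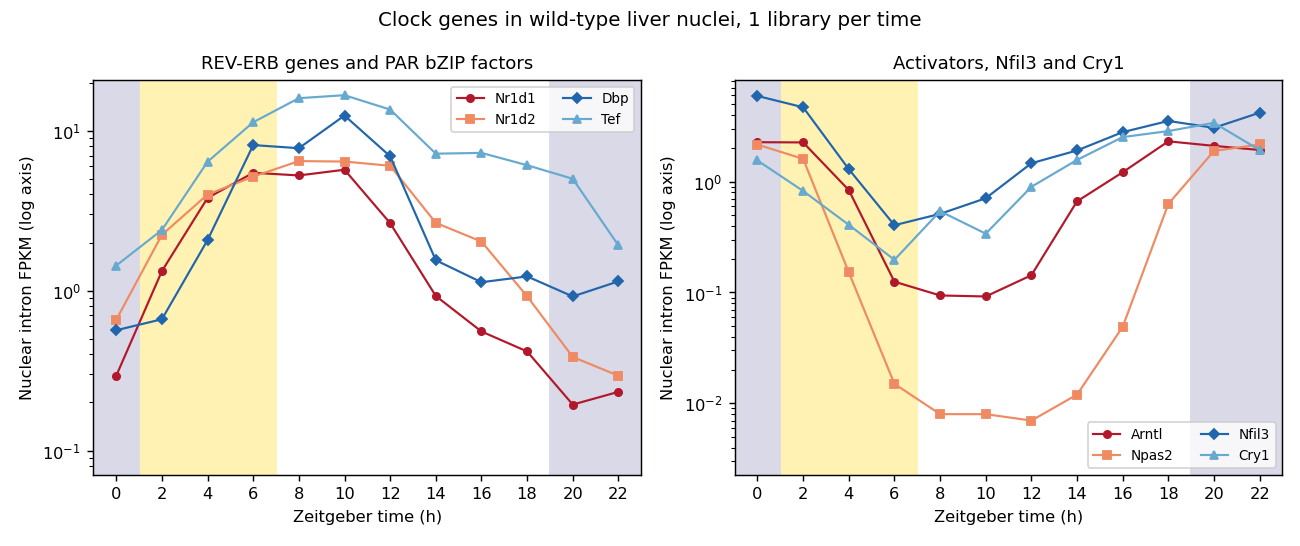
Intron FPKM (log axis) of clock genes in the 12 wild-type nuclear libraries against zeitgeber time in hours, 1 library per point, with the early light window shaded yellow and the late night window grey. Nr1d1 stood at 1.33 FPKM at ZT2 and 5.47 FPKM at ZT6, above 0.294 FPKM or less in late night, while Npas2 stood at 1.6 FPKM at ZT2 and 0.0150 FPKM at ZT6.

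Promoters of 3 clock genes that were low at ZT6 are shown, chosen because their windows hold a motif match. E-boxes and ROR elements belong to the loop described above, and the FOXO element does not. They are RefSeq sequences (GRCm38.p6) of 300 bases, 250 before and 50 after the annotated start, in the direction of transcription, with motif matches in capitals. The Arntl promoter, the second of 2 in the table, lies at chr7:113207261-113207560 on the plus strand and holds a ROR element, TAGGTCA, whose first base is 31 bases after the start.
Arntl: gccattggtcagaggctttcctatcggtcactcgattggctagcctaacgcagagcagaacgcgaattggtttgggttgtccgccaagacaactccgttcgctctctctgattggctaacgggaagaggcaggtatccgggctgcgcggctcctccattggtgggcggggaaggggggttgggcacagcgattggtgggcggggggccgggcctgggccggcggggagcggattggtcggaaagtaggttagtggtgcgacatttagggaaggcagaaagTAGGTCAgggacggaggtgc
The Nfil3 promoter at chr13:52980990-52981289 on the minus strand holds the ROR element on the opposite strand, read as TGACCTA, 12 bases before the start.
Nfil3: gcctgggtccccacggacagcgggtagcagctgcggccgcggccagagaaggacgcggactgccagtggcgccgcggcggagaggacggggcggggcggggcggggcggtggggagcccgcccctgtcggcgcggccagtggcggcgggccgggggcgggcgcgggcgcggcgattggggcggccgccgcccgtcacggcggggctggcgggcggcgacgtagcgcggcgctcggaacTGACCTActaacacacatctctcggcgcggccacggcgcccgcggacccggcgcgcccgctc
The Cry1 promoter at chr10:85185005-85185304 on the minus strand holds a FOXO element, GTAAACA, 95 bases before the start and an E-box, CACGTG, 60 bases before it, and the matches do not overlap.
Cry1: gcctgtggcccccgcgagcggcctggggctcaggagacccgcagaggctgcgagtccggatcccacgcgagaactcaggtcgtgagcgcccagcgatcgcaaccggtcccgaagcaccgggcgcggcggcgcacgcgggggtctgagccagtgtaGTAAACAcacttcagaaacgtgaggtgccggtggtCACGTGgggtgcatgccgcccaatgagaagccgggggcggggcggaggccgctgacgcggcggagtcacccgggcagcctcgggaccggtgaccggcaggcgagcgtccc
Both strands were searched for 5 motifs. Of 32851 RefSeq promoters of this length, 7.15% held the E-box, 2.61% the ROR element, 3.65% the FOXO element, 0.938% the D-box TTATGTAA and 1.79% the cAMP response element TGACGTCA. Of 29 clock genes and output factors, 22 had a promoter in the table and 9 of these held any of the 5. Some of these genes had more than 1 promoter, and the share of all genes holding any of the 5 was not counted. The 9 of 22 therefore cannot be set beside the shares of single motifs. Nr1d1, Nr1d2 and Npas2, with 1 promoter each, held none, and the Cry1 window held no ROR element. A match describes the letters of the window and does not show binding.

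Windows did not overlap for 13 of 30 genes of fatty acid oxidation and ketogenesis tested on introns, all higher (43.3%, against 11.1% of all genes), they overlapped for the other 17, and the list's median change was 0.68. None passed limma's adjusted threshold. Ppara, the gene of the fatty acid sensor PPARA (chr15:85735776-85806851, plus strand of mm10), had 9.48, 12.8 and 11.9 FPKM in early light, against 5.73, 5.12 and 5.24 FPKM in late night (log2 change 1.12 ± 0.17 SE, limma adjusted p = 0.153). The 3 late night values lay close together, and each early light value stood well above them. Cpt1a, which lets long-chain fatty acids into mitochondria (chr19:3323301-3385733, plus strand of mm10), had 6.28, 8.81 and 5.89 FPKM in early light, against 2.43, 1.68 and 3.71 FPKM in late night (log2 change 1.5 ± 0.33 SE, limma adjusted p = 0.226). Its exons, 20.4, 22.1 and 23.8 FPKM in early light, against 12.2, 9.92 and 7.69 FPKM in late night, differed with a smaller spread (log2 change 1.41 ± 0.19 SE, limma adjusted p = 0.107).

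Angptl4, a secreted inhibitor of lipoprotein lipase and a PPARA target, had 16.8, 14.6 and 14.7 FPKM in early light, against 7.87, 2.16 and 6.21 FPKM in late night, the early light libraries lying close together and the late night ones apart. Bdh1, which reduces acetoacetate to hydroxybutyrate, had 1.4, 2.33 and 1.77 FPKM in early light, against 0.851, 1.17 and 0.77 FPKM in late night. Among enzymes of the oxidation spiral, the dehydrogenase Acadl had 2.45, 2.93 and 2.07 FPKM in early light, against 1.41, 1.37 and 1.41 FPKM in late night. Hadhb, a subunit of the trifunctional protein, had 3.49, 5.08 and 4.08 FPKM in early light, against 2.18, 1.99 and 2.33 FPKM in late night. The thiolase Acaa2 had 4.41, 10.2 and 6.14 FPKM in early light, against 3.63, 3.35 and 3 FPKM in late night. Windows of Hadha, the partner subunit of Hadhb, and of the carnitine carrier Slc25a20 did not overlap either, with log2 changes of 0.66 and 0.76. The widest change of the list was that of Cyp4a32, a fatty acid omega-hydroxylase, at 12.4, 13.5 and 3.4 FPKM in early light, against 2.59, 1.58 and 1.84 FPKM in late night (log2 change 2.10 ± 0.55 SE, limma adjusted p = 0.27). Within early light, ZT6 lay well below ZT2 and ZT4. Cyp4a32 and Cyp4a31 have near-identical relatives, and how reads were shared among them is uncertain.

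Other genes of fat oxidation overlapped. Pdk4, the kinase that keeps pyruvate from oxidation, had 0.935, 0.482 and 0.144 FPKM in early light, against 0.963, 1.71 and 0.503 FPKM in late night, with the lowest value at ZT6 and the highest at ZT22. Fgf21, a fasting hormone of the liver, rested on 20 reads in early light and 6 in late night. On exons 9 of 29 members had higher and 0 lower windows (8.63% of all genes were higher), with a median of 0.28. Without the scaling this became 5 higher and 1 lower on exons (2.92% and 13.1% of all genes). On introns it stayed at 13 and 0 (8.49% and 11.1% of all genes). Without ZT20 and ZT22, 23 of 30 introns were higher (26.6% of all genes).

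Autophagy and mTOR genes were another list with many members above the late night range. On introns 11 of 23 were higher (47.8%, against 11.1% of all genes) and 1 was lower, with a median of 0.23. Ulk1, the kinase that starts autophagy, had 3.74, 6.22 and 4.1 FPKM in early light, against 2.37, 1.29 and 1.75 FPKM in late night (log2 change 1.41 ± 0.28 SE, limma adjusted p = 0.204). Bnip3, a receptor for the removal of mitochondria, had 3.48, 6.29 and 5.31 FPKM in early light, against 2.4, 0.995 and 2.22 FPKM in late night (1.5 ± 0.38 SE, adjusted p = 0.27), and its exons gave a daily-curve adjusted p of 0.0489. Gabarapl1, a coat protein of the autophagosome, had 9.67, 5.96 and 4.82 FPKM in early light, against 4, 4.23 and 4.28 FPKM in late night, highest at ZT2. Map1lc3b, of the same family, had 2.96, 2.26 and 2.61 FPKM in early light, against 2.1, 1.76 and 1.62 FPKM in late night. Tfeb, an activator of lysosomal genes, had 0.457, 0.721 and 0.697 FPKM in early light, against 0.443, 0.413 and 0.398 FPKM in late night. Changes of the other members that were higher lay between 0.23 and 0.67 on the log2 scale, those of Becn1 and Wipi1 apart only after scaling. The member that was lower was Atg16l1, which holds the small RNA gene Scarna6, at 15.7, 14.01 and 17.1 FPKM in early light, against 19.1, 22.4 and 18.5 FPKM in late night. Without ZT20 and ZT22, 11 of 22 introns were higher and 2 lower (26.6% and 25.7% of all genes). On exons 6 of 20 were higher and 0 lower (8.63% and 6.68% of all genes). Without the scaling 9 introns and 1 exon signal were higher (8.49% and 2.92% of all genes), so the exon count rests on it.

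**Figure D2:**
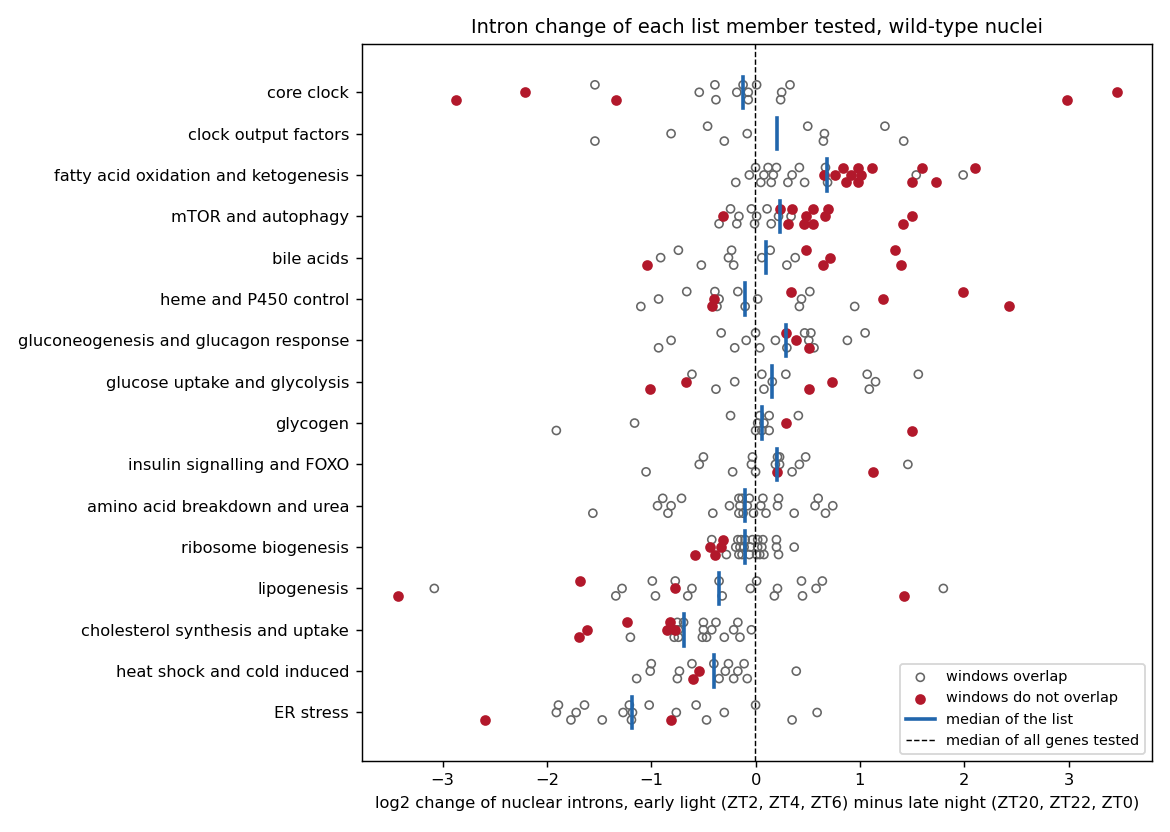
Log2 change of nuclear intron signal, early light minus late night, of every tested member of 16 gene lists, with filled red points where the windows did not overlap, open grey points where they did, a blue bar at each list's median and a dashed line at the median of all genes. Points of fatty acid oxidation and ketogenesis lie mostly right of 0 with a median of 0.68, those of cholesterol synthesis all left of it with a median of -0.69.

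Of the genes of cholesterol synthesis and uptake, all 23 tested introns had a negative change, with a median of -0.69. Windows did not overlap for 6, all lower (26.1%, against 9.66% of all genes), overlapped for 17, and limma called 0. Along the pathway, Pmvk, the phosphomevalonate kinase, had 0.268, 0.664 and 0.294 FPKM in early light, against 1.68, 1.66 and 0.919 FPKM in late night (log2 change -1.69 ± 0.34 SE, limma adjusted p = 0.204). Mvd, which turns the product into isopentenyl diphosphate, had 0.197, 0.333 and 0.261 FPKM in early light, against 0.592, 1.18 and 0.467 FPKM in late night. Idi1, its isomerase, had 1.29, 2.03 and 1.26 FPKM in early light, against 2.53, 4.12 and 2.12 FPKM in late night. Fdps, the farnesyl diphosphate synthase (chr3:89093588-89101967, minus strand of mm10), had 1.73, 2.91 and 2.65 FPKM in early light, against 6.68, 12.4 and 5.36 FPKM in late night and the windows lay well apart (log2 change -1.62 ± 0.30 SE, limma adjusted p = 0.204). Lss, which closes the sterol rings, had 0.674, 1.13 and 1.05 FPKM in early light, against 1.84, 2.36 and 1.2 FPKM in late night. Ebp, a sterol isomerase, had 1.24, 1.02 and 1.41 FPKM in early light, against 1.84, 2.46 and 2.28 FPKM in late night.

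Hmgcs1, the cytosolic HMG-CoA synthase, had 2.12, 3.3 and 1.29 FPKM in early light, against 4.72, 10.4 and 2.53 FPKM in late night. The windows overlapped, with ZT0 below ZT4. Without ZT0, 18 of the 23 introns were lower and 0 higher (19.3% and 19.4% of all genes), and without ZT4 15 were lower (13.6% of all genes). Without ZT20 and ZT22, with ZT0 as the only late night library, the median change was -0.11. Then 7 were lower and 2 higher, against 25.7% and 26.6% of all genes. On exons 7 of 22 were lower and 1 higher (6.68% and 8.63% of all genes), and the daily curve called Pmvk (adjusted p = 0.0268) and Mvd (adjusted p = 0.0388).

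Lipogenic genes were split. Of 23 tested on introns 3 were lower and 1 higher with windows apart (9.66% and 11.1% of all genes), and the median was -0.35. Scd1, the desaturase that makes oleate (chr19:44394450-44407709, minus strand of mm10), had the largest downward change among genes with windows apart and at least 0.5 FPKM of intron signal in the higher window, at 0.8, 0.349 and 0.345 FPKM in early light, against 10.8, 7.9 and 2.11 FPKM in late night (log2 change -3.43 ± 0.62 SE, limma adjusted p = 0.198, daily-curve adjusted p = 0.0514). Its nuclear exons, 65.6, 21.7 and 30.5 FPKM in early light, against 112, 66.1 and 59.7 FPKM in late night, overlapped, with a change of -0.87. Insig1, which holds SREBP factors in the endoplasmic reticulum, had 18.1, 9.05 and 8.58 FPKM in early light, against 33.03, 61.5 and 25.5 FPKM in late night (log2 change -1.68 ± 0.44 SE, limma adjusted p = 0.27). Scd2 was low throughout, with 27 reads in early light and 56 in late night. Fads2, a desaturase of polyunsaturated fatty acids, was higher at 6.98, 12.2 and 11.9 FPKM in early light, against 4.05, 4.09 and 3.41 FPKM in late night (log2 change 1.42 ± 0.22 SE, limma adjusted p = 0.153, daily-curve adjusted p = 0.046). Mir6993 inside its neighbour Fads1 was higher on exons, on 23 reads in early light and 6 in late night.

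Elovl3, a fatty acid elongase, had 24.6, 1.24 and 0.416 FPKM in early light, against 25.6, 19.5 and 19.8 FPKM in late night, at late night level at ZT2 and below every late night library at ZT4 and ZT6 (log2 change -3.08 ± 1.35 SE, limma adjusted p = 0.355, daily-curve adjusted p = 0.046). It overlaps Pitx3 on the other strand. Fatty acid synthase, Fasn, had 1.55, 5.43 and 2.28 FPKM in early light, against 14.5, 11.1 and 2.18 FPKM in late night. Its activator Srebf1, which overlaps Rai1, had 1.68, 3.56 and 2.74 FPKM in early light, against 5.85, 6.43 and 1.72 FPKM in late night. In both, ZT20 and ZT22 were high and ZT0 lay within the early light range. Thrsp, a lipogenic factor, had 7.5, 3.95 and 13.6 FPKM in early light, against 54.3, 7.81 and 7.8 FPKM in late night. Lpin1, a phosphatidate phosphatase, had 13.9, 4.3 and 25.9 FPKM in early light, against 9.2, 0.895 and 4.65 FPKM in late night. Both varied more within than between the windows. Without ZT0, 8 of 23 introns were lower and 1 higher (19.3% and 19.4% of all genes). Set against ZT0 alone, without ZT20 and ZT22, 2 of 21 were lower and 8 higher (25.7% and 26.6% of all genes), with a median of 0.24.

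**Figure D3:**
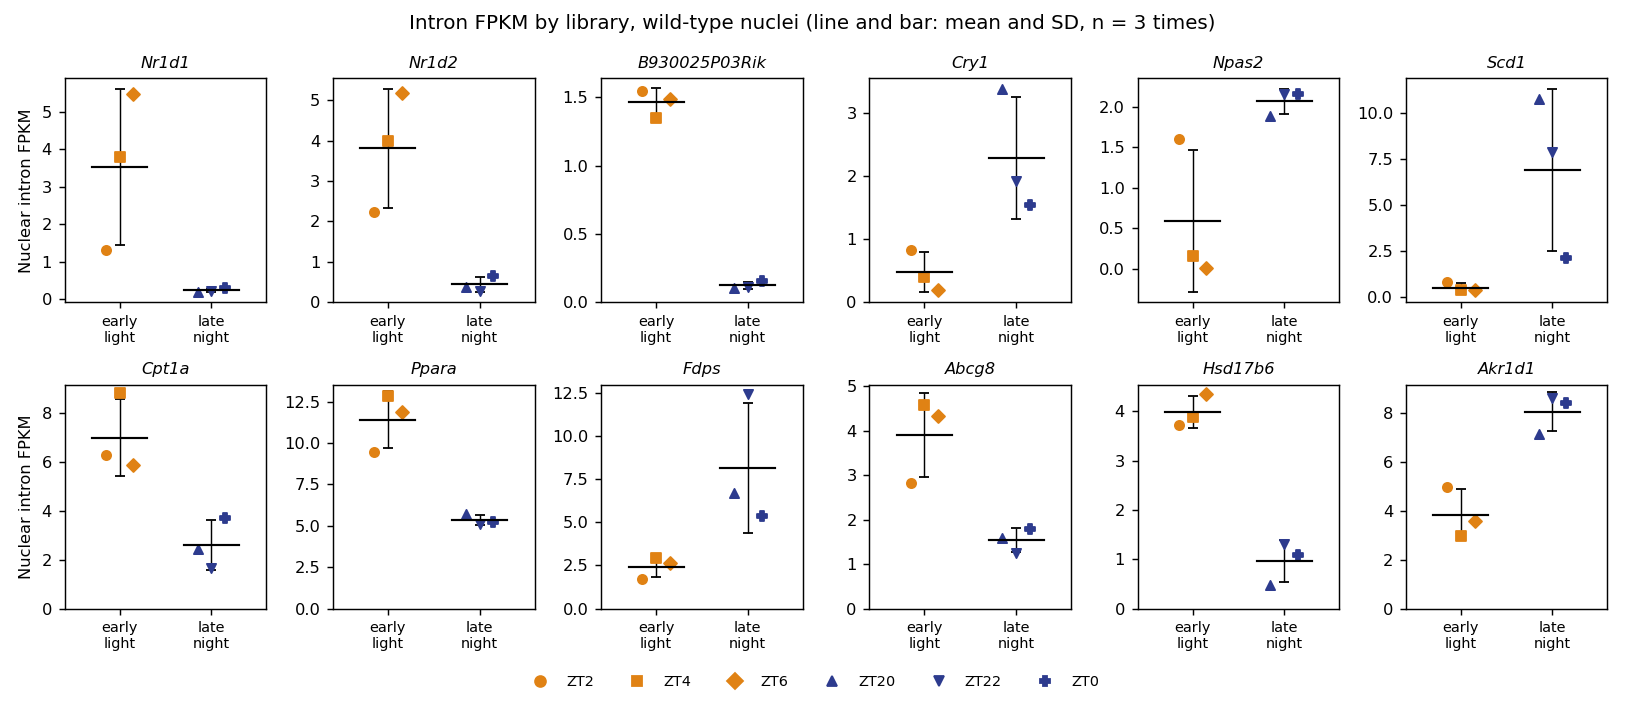
Intron FPKM of 12 genes in each of the 3 early light libraries (left, orange) and the 3 late night libraries (right, blue) of wild-type nuclei, with a line at the mean and a bar of 1 SD (n = 3 times). B930025P03Rik lay between 1.35 and 1.55 FPKM in early light and between 0.108 and 0.154 FPKM in late night, and the 3 late night values of Scd1 ranged between 2.11 and 10.8 FPKM.

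Glucose metabolism gave few separations. Gys2, the liver glycogen synthase (chr6:142422613-142473109, minus strand of mm10), had 3.8, 8.26 and 9.13 FPKM in early light, against 2.91, 2.12 and 2.19 FPKM in late night, higher at each later time of early light (log2 change 1.5 ± 0.32 SE, limma adjusted p = 0.216, daily-curve adjusted p = 0.0328). Its exons, 14.99, 23.1 and 43.96 FPKM in early light, against 15.8, 12.8 and 7.97 FPKM in late night, gave a daily-curve adjusted p of 0.00798. Ppp1r3c, which brings protein phosphatase 1 to glycogen, had 3.96, 1.64 and 1.09 FPKM in early light, against 6.93, 15.9 and 3.95 FPKM in late night, so that ZT2 and ZT0 met at nearly the same value (daily-curve adjusted p = 0.0321). In the glycogen list 2 of 13 introns were higher and 0 lower. Among gluconeogenesis and glucagon response genes 3 of 18 were higher and 0 lower, and of glucose uptake and glycolysis genes 2 of 15 were higher and 2 lower, against 11.1% and 9.66% of all genes. The gluconeogenesis count depends on the libraries, with 4 higher and 3 lower without ZT2 (18.1% and 17.3% of all genes). Leaving out ZT20 and ZT22 gave 4 higher and 5 lower (26.6% and 25.7% of all genes), with a median of -0.18, where all 6 libraries gave 0.29. With ZT0 as the only late night library there were also 4 higher and 0 lower for glycogen and 5 and 2 for glucose uptake. Pck1, the entry enzyme of gluconeogenesis, had 96.6, 54.9 and 58.95 FPKM in early light, against 42.6, 13.6 and 94.1 FPKM in late night. G6pc, which releases free glucose, had 56.5, 38.6 and 25.5 FPKM in early light, against 25.2, 19.4 and 43.5 FPKM in late night. In both, ZT0 stood above ZT20 and ZT22 and within the early light range. Pklr, the liver pyruvate kinase, had 1.36, 8.14 and 12.7 FPKM in early light, against 2.33, 1.48 and 1.65 FPKM in late night, low at ZT2 and above all late night values at ZT4 and ZT6. Of 17 insulin signalling and FOXO genes 2 were higher and 0 lower, and without ZT20 and ZT22 4 and 2. Igfbp1, a FOXO target, had 22.9, 5.45 and 4.45 FPKM in early light, against 3.69, 1.33 and 13.6 FPKM in late night, again with ZT0 high beside ZT2.

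The ER stress list holds chaperones and folding enzymes of the endoplasmic reticulum with the sensors, factors and degradation genes of its stress response, and was uneven between neighbouring libraries. The median intron change of 20 genes was -1.19, with 17 negative and 3 positive, yet windows did not overlap for only 2, both lower, near the 9.66% of all genes. Hspa5, the chaperone BiP, had 6.8, 1.92 and 10.7 FPKM in early light, against 9.01, 24.5 and 25.8 FPKM in late night. Hsp90b1, of the same compartment, had 14.5, 7.12 and 19.03 FPKM in early light, against 15.4, 41.6 and 40.8 FPKM in late night. In both genes ZT22 and ZT0 stood high, ZT20 lay within the early light range and ZT4 was lowest. Manf, Calr, Creld2 and Pdia6 also had ZT4 lowest, and ZT22 highest. The 2 with windows apart were Sdf2l1, a chaperone partner of BiP, at 0.093, 0.045 and 0.351 FPKM in early light, against 0.425, 1.68 and 1.54 FPKM in late night on 10 reads in early light and 69 in late night, and Edem1, which sends misfolded proteins to degradation, at 3.41, 2.23 and 3.69 FPKM in early light, against 4.65, 5.65 and 6.52 FPKM in late night. Without ZT20 14 of 20 were lower (14.6% of all genes), without ZT6 12 (15.4%), and without ZT20 and ZT22 together 16 (25.7%). Heat shock genes also had a negative median, -0.40 over 17 genes, but only 2 had lower windows (11.8%, near the 9.66% of all genes). These were Hspe1, a mitochondrial chaperonin, and Bag3, a partner of HSP70 chaperones. Without ZT20 and ZT22, 13 of the 17 heat shock genes were lower and 1 higher (25.7% and 26.6% of all genes).

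**Figure D4:**
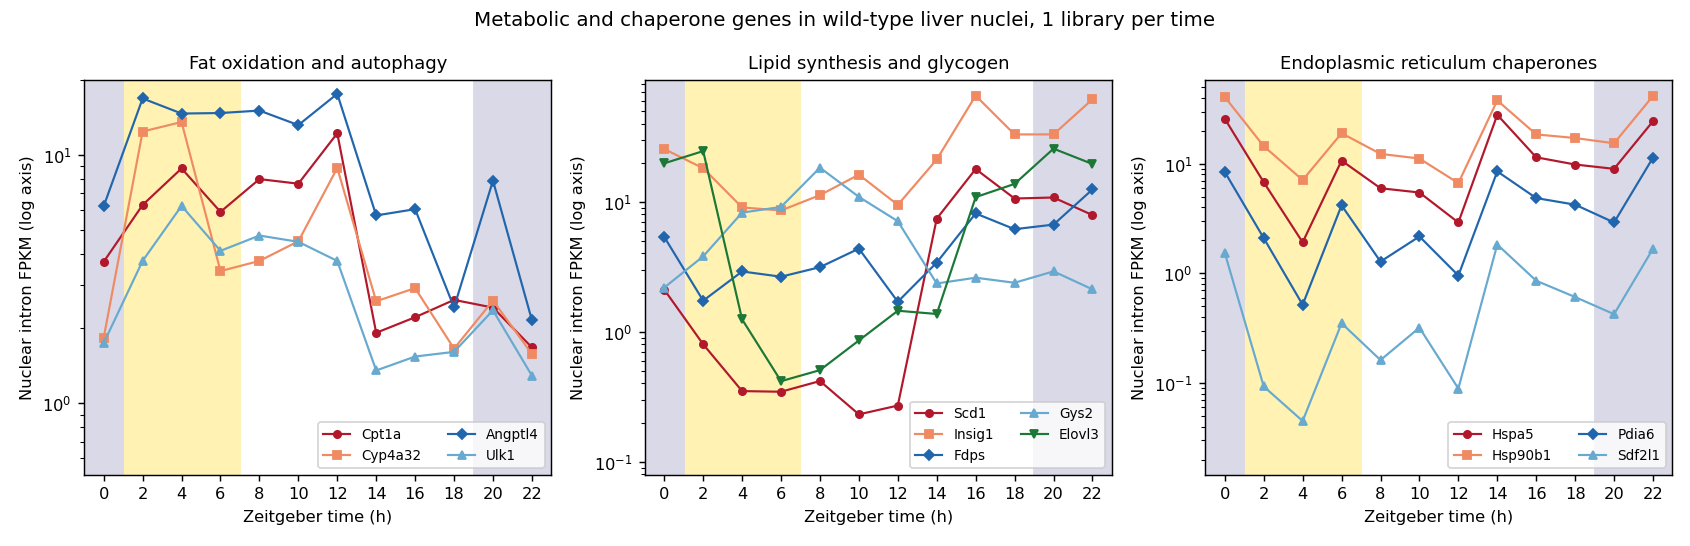
Intron FPKM (log axis) of metabolic and chaperone genes in the 12 wild-type nuclear libraries against zeitgeber time in hours, 1 library per point, early light shaded yellow and late night grey. Cpt1a stood at 5.89 FPKM or more in early light and at 3.71 FPKM or less in late night. Within these windows Hspa5 lay between 1.92 FPKM at ZT4 and 25.8 FPKM at ZT0, and its highest value of the day was 28.0 FPKM at ZT14.

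In bile acid and sterol handling, 5 of 16 introns were higher (31.2%, against 11.1% of all genes) and 1 lower. Abcg5 and Abcg8, the paired transporters that send sterols into bile, were both higher. Abcg5 had 2.63, 4.47 and 4.01 FPKM in early light, against 1.41, 1.01 and 1.9 FPKM in late night. Abcg8 had 2.83, 4.57 and 4.33 FPKM in early light, against 1.59, 1.26 and 1.79 FPKM in late night (log2 changes 1.39 ± 0.28 SE and 1.34 ± 0.22 SE, limma adjusted p = 0.204 and 0.184). They lie head to head and overlap on opposite strands, so they are not independent readings. Slco1a1, an organic anion importer, had 16.9, 14.4 and 18.5 FPKM in early light, against 12.3, 11.8 and 7.77 FPKM in late night. Slc10a1 and Slco1b2, other uptake carriers, were apart after scaling only. Without scaling 3 were higher (8.49% of all genes), and without ZT20 and ZT22 7 were higher and 3 lower (26.6% and 25.7% of all genes). The gene that was lower, Akr1d1, a reductase of bile acid synthesis, had 4.98, 2.96 and 3.58 FPKM in early light, against 7.15, 8.62 and 8.42 FPKM in late night (log2 change -1.04 ± 0.25 SE, limma adjusted p = 0.244). Cyp7a1, the rate-limiting enzyme of that synthesis, had 1.6, 3.21 and 11.2 FPKM in early light, against 10.8, 9.83 and 4.01 FPKM in late night, with ZT6 at the level of ZT20.

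Among 19 heme and P450 genes 4 were higher and 2 lower (21.1% and 10.5%, against 11.1% and 9.66% of all genes). Without ZT20 and ZT22, 8 of 17 were higher and 3 lower (26.6% and 25.7% of all genes). Cyp2a5 had 0.632, 1.94 and 3.81 FPKM in early light, against 0.243, 0.363 and 0.248 FPKM in late night (log2 change 2.43 ± 0.54 SE, limma adjusted p = 0.232, daily-curve adjusted p = 0.0175). Por, which hands electrons to the P450 enzymes, had 3.87, 3.93 and 7.78 FPKM in early light, against 1.46, 0.517 and 2.43 FPKM in late night. Cyp2e1, the ethanol-inducible P450, had 77.4, 81 and 102 FPKM in early light, against 41.8, 46.6 and 28.3 FPKM in late night. Exons of Cyp2a5 and Por did not follow, with 3.08, 5.44 and 14.6 FPKM in early light, against 10.2, 5.12 and 1.74 FPKM in late night for Cyp2a5 and 3.02, 4.04 and 7.58 FPKM in early light, against 6.81, 4.18 and 1.94 FPKM in late night for Por, and overlapping windows in both. Alas1, the first enzyme of heme synthesis, had 16.1, 22.6 and 47.5 FPKM in early light, against 14.5, 5.23 and 34.1 FPKM in late night. Of 29 ribosome biogenesis genes 5 were lower and 0 higher (17.2%, against 9.66% of all genes), and changes of the 29 lay between -0.58 and 0.37. Leaving out ZT20 and ZT22 gave 9 lower and 1 higher (25.7% and 26.6% of all genes). The count depends on the libraries, with 6 lower and 5 higher without ZT2 (17.3% and 18.1% of all genes). Without ZT0 and ZT2 there were 7 lower and 7 higher (26.7% and 26.3% of all genes). Npm1, nucleophosmin, had 1.63, 1.79 and 1.72 FPKM in early light, against 2.19, 2.37 and 2.43 FPKM in late night. None of 26 genes of amino acid breakdown and the urea cycle had windows apart (20.8% of all genes in either direction). Without ZT20 and ZT22, 3 were higher and 8 lower (26.6% and 25.7% of all genes). Metallothionein Mt1, on the glucocorticoid list, had 25.2, 9.92 and 6.39 FPKM in early light, against 0.695, 0.392 and 8.07 FPKM in late night, with ZT0 within the early light range. Of the smaller lists on introns, set beside 11.1% of all genes higher and 9.66% lower, ATF4 targets had 3 of 11 genes higher and 0 lower, paraspeckle proteins 3 of 13 and 0, and the glucocorticoid list 1 of 13 and 0. Immediate early genes had 1 of 10 higher and 1 lower, and NAD and sirtuin genes 2 of 17 and 2. Cell cycle and GADD45 genes had 0 of 14 higher and 2 lower, and nuclear-retained RNAs 0 of 5 and 2.

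Outside the lists, the largest changes with windows apart were picked after their values were seen, among genes with at least 0.5 FPKM of intron signal in the higher window. Rgs16, a regulator of G-protein signalling that is known to respond to fasting in mouse liver, had 0.897, 1.77 and 6.74 FPKM in early light, against 0.435, 0.098 and 0.057 FPKM in late night (log2 change 3.56 ± 0.80 SE, limma adjusted p = 0.239). Igfbp2, an IGF-binding protein, had 10.5, 23.04 and 6.67 FPKM in early light, against 2.29, 2.95 and 1.93 FPKM in late night. Hsd17b6, a hydroxysteroid dehydrogenase, had 3.71, 3.88 and 4.35 FPKM in early light, against 0.484, 1.31 and 1.08 FPKM in late night, with close values inside each window (2.15 ± 0.32 SE, limma adjusted p = 0.153). The exons of Hsd17b6 gave a daily-curve adjusted p of 0.0264. Rad51b, a DNA repair gene, had 0.128, 0.892 and 0.581 FPKM in early light, against 0.055, 0.044 and 0.053 FPKM in late night with a daily-curve adjusted p of 0.0393. Mtl5, also known as Tesmin, had 0.977, 0.746 and 1.13 FPKM in early light, against 0.257, 0.094 and 0.153 FPKM in late night. Gal, the galanin gene, rested on 134 reads in early light and 9 in late night.

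Among those lower with ample reads were Clic3, a chloride intracellular channel gene, at 1.46, 0.99 and 0.859 FPKM in early light, against 10.03, 27.4 and 3.95 FPKM in late night (log2 change -3.15 ± 0.62 SE, daily-curve adjusted p = 0.0208). Aqp8, a water channel, had 0.904, 0.456 and 0.297 FPKM in early light, against 3.73, 5.84 and 1.63 FPKM in late night (-2.55 ± 0.53 SE, daily-curve adjusted p = 0.0212). Cml5 had 0.153, 0.147 and 0.165 FPKM in early light, against 2.97, 2.69 and 0.287 FPKM in late night, with a daily-curve adjusted p of 0.0321. Lgalsl, a galectin-like gene, had 0.554, 0.209 and 0.028 FPKM in early light, against 1.23, 2.05 and 0.952 FPKM in late night, with a daily-curve adjusted p of 0.0175. In Cml5, Clic3 and Aqp8 the library of ZT0 lay nearer to early light than ZT20 and ZT22 did. H3f3b (3 and 15 reads), 1700007L15Rik (1 and 7) and Gm5741 (1 and 3) met the size rule on few reads in early light and late night. Gpcpd1, a glycerophosphocholine phosphodiesterase, and Hdc, histidine decarboxylase, were picked by their exons, and their intron values are not given here. Gpcpd1 exons had 18.1, 22.4 and 30.3 FPKM in early light, against 8.54, 7.42 and 8.43 FPKM in late night, a change of 1.74 ± 0.25 SE (limma adjusted p = 0.124, daily-curve adjusted p = 0.00798). Hdc exons had 2.96, 7.2 and 9.83 FPKM in early light, against 2.46, 1.86 and 1.04 FPKM in late night.

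Exons and introns of the same 6 libraries were next compared within each library, to ask whether spliced and unspliced signal moved unequally. No gene of 10121 passed (0.0% called by limma, 809 or 7.99% at an unadjusted p under 0.05), the smallest adjusted p being 0.289 for Aacs, at -1.07. Exon changes of the lists were smaller than intron changes for fat oxidation, with medians of 0.28 and 0.67 over the 29 members measured in all readings, and for the ER stress list, with medians of -0.73 and -1.19 over 20. They were close for cholesterol synthesis, at -0.66 and -0.60 over 22. For Scd1 the exon change exceeded the intron change by 2.56, with an adjusted p of 0.616.

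Total RNA of the same livers showed what the messenger pool did over the same hours. The median exon change in total RNA was 0.06 for fat oxidation, -0.54 for cholesterol synthesis, -0.59 for lipogenesis and 0.15 for the ER stress list, against intron medians in nuclei of 0.67, -0.60, -0.34 and -1.19. Cpt1a messenger stood at 50.4, 73.3 and 89.9 FPKM in early light, against 51.2, 63.5 and 45.4 FPKM in late night, and its change minus that of nuclear introns was -1.08 (95% interval -2.02 to -0.14, limma adjusted p = 0.22). Scd1 stood at 1227, 698 and 1117 FPKM in early light, against 2571, 1593 and 1372 FPKM in late night, a change of -0.82 that differed from the intron change by 2.61 (interval 1.04 to 4.19, adjusted p = 0.173). Hspa5 stood at 479, 562 and 213 FPKM in early light, against 253, 298 and 314 FPKM in late night, higher at ZT2 and ZT4 than in any late night library while its introns were at their lowest at ZT4 (difference 2.18, adjusted p = 0.235). Nr1d1 stood at 1.19, 7.52 and 5.48 FPKM in early light, against 0.401, 0.332 and 0.413 FPKM in late night in total RNA, a change of 3.01. The changes of Nr1d2 and Cry1 there were 2.44 and -2.07.

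Of 10532 genes tested for a difference between total exons and nuclear introns, limma called 2 higher and 2 lower (0.019% each), and 2005 (19.0%) had an unadjusted p under 0.05. The calls were few and rested on low signal in nuclei, and their number was 226 without ZT0 and 0 without any of ZT4, ZT6, ZT20 or ZT22. Nr4a1, an orphan nuclear receptor, had 0.88, 1.8 and 0.92 FPKM in early light, against 0.138, 0.133 and 0.301 FPKM in late night in total RNA. Its nuclear introns had 0.116, 0.232 and 0.062 FPKM in early light, against 0.077, 0.087 and 0.242 FPKM in late night, a difference of 2.11 (limma adjusted p = 0.0249). Acot3, an acyl-CoA thioesterase, had 0.559, 0.918 and 0.744 FPKM in early light, against 2.24, 1.37 and 1.59 FPKM in late night in total RNA. Its nuclear introns had 0.099, 0.221 and 0.154 FPKM in early light, against 0.1, 0.071 and 0.055 FPKM in late night, a difference of -1.82 (limma adjusted p = 0.0249). A430035B10Rik and Lppos, at 4 intron reads in all each, were the other 2.

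**Figure D5:**
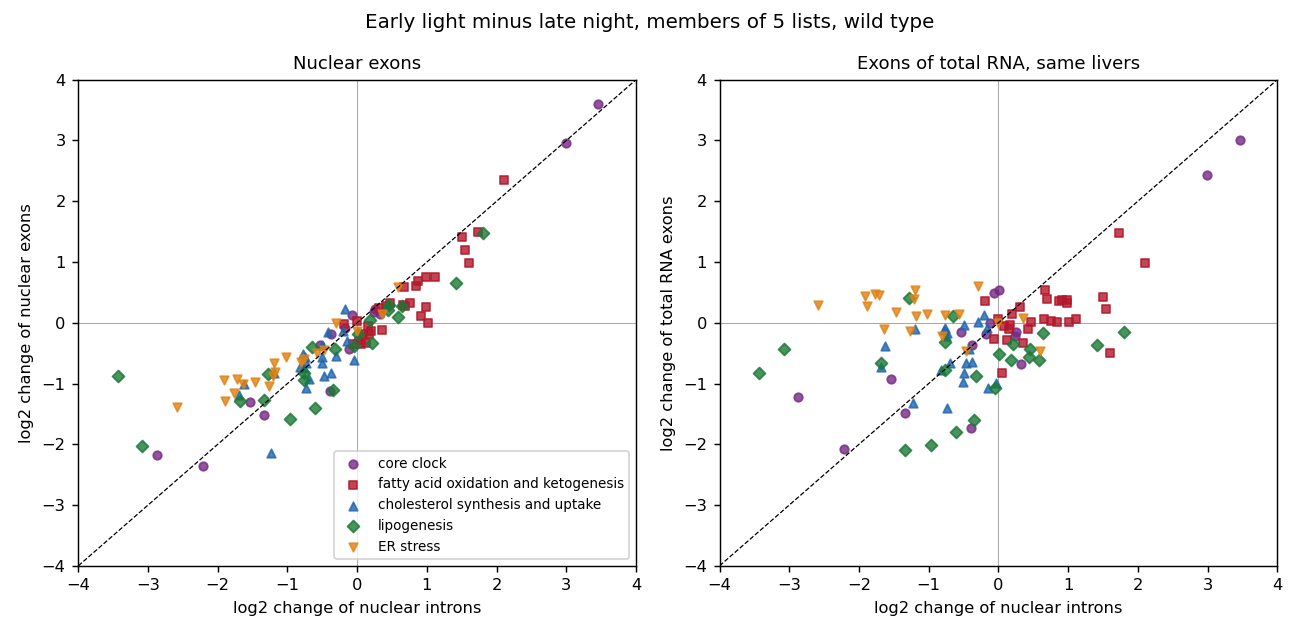
Log2 change, early light minus late night, of nuclear exons (left) and of total RNA exons (right) against that of nuclear introns, for members of 5 gene lists in wild type, with a dashed line where both are equal. In nuclear exons the ER stress genes had a median of -0.73, while in total RNA the ER stress genes lie near 0 (median 0.15) at intron changes with a median of -1.19, and the REV-ERB genes stay high in both.

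Nuclei of Nono-/- livers served as a second set of 6 libraries taken at the same times. In Nono-/- nuclei, Nono introns gave 0.416, 0.516 and 0.567 FPKM in early light, against 0.409, 0.36 and 0.488 FPKM in late night. In wild-type nuclei they gave 1.37, 1.27 and 1.46 FPKM in early light, against 1.19, 1.57 and 1.5 FPKM in late night. Of 12029 genes none passed for a difference between wild type and Nono-/- in this change (0.0% called by limma, 750 or 6.23% at an unadjusted p under 0.05), the smallest adjusted p being 0.306 for Mybbp1a. Medians over list members were 0.48 for fat oxidation, -0.85 for cholesterol synthesis, -0.60 for lipogenesis, -1.52 for the ER stress list and 0.19 for autophagy, in Nono-/- nuclei, on the same side of 0 as in wild type. Medians of 5 other gene lists lay on the other side, namely glucose uptake (-0.12 in Nono-/- and 0.16 in wild type), heme and P450 (-0.34 and 0.02), amino acid breakdown (0.08 and -0.12), NAD and sirtuins (-0.06 and 0.10) and immediate early genes (0.49 and -0.63 over 5 genes). Medians of Kupffer cell markers (0.28 and -0.09), stellate cell markers (0.13 and -0.14) and cholangiocyte markers (0.28 and -0.10 over 3 genes) did too. Nr1d1 had 0.806, 2.85 and 3.52 FPKM in early light, against 0.193, 0.252 and 0.212 FPKM in late night over Nono-/- introns. Scd1 had 0.517, 1.03 and 0.66 FPKM in early light, against 12.1, 10.6 and 5.97 FPKM in late night there. The wild-type change minus the Nono-/- change was 0.44 for Nr1d1 (95% interval -1.09 to 1.96) and 0.10 for Scd1 (-1.58 to 1.77). Cpt1a had 2.45, 4.46 and 5.25 FPKM in early light, against 2.14, 1.12 and 1.67 FPKM in late night in Nono-/- nuclei. Hspa5 had 6.26, 2.95 and 4.06 FPKM in early light, against 5.48, 15.2 and 37.1 FPKM in late night there. Fads2 had 2.12, 4.49 and 5.35 FPKM in early light, against 4.25, 3.36 and 2.55 FPKM in late night in Nono-/- nuclei, and the wild-type change minus the Nono-/- change was 1.18 (interval 0.33 to 2.04), which failed the adjustment (limma adjusted p = 0.747).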

How the data were processed

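Livers of wild-type and Nono-/- mice gave total and nuclear RNA libraries, made per the labels' protocols with the Ribo-Zero Gold version of Illumina's TruSeq Stranded kit for total RNA. FastQC 0.11.2 and STAR 2.4.0k, with the build mm10, are named in the submitters' processing notes. Per the file headers, the authors computed FPKM with HOMER's analyzeRepeats.pl over exons or introns with isoforms condensed, in a version not given in the sources used here. No strand option is written, so overlapping genes were treated as inseparable. The tables hold 24453 genes (exons) and 20771 (introns).

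Read depth came from how low FPKM values step by whole reads, of which 100% were whole within 0.1 read, and counts of reads cover counting error only. Libraries were scaled by their median ratio to a geometric mean of all, and values were taken as log2(FPKM + 0.05) for introns or log2(FPKM + 0.1) for exons, so changes of low genes are understated. Testing covered genes averaging 0.1 FPKM or more (introns) or 0.5 FPKM or more (exons), with limma 3.58.1 in R 4.3.3, with trend and Benjamini-Hochberg adjustment at 0.05, and the scripts were tested on simulated data. Exon minus intron, total exon minus nuclear intron of the same liver, and the product of genotype and window were fitted in the same way. Figures were drawn with matplotlib 3.10.9 in Python 3.11.15.

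The 31 lists with 517 genes, the windows and the tests were chosen with earlier results of these data known. The rule for named genes took, among those called with windows apart, up to 12 each way with at least 0.5 FPKM (introns) or 2 FPKM (exons) in the higher window, 5 each way for the differences, and list members. As few genes were called, the 12 largest each way with windows apart were named without a call. The daily curve, the exon share as a covariate and the fit without ZT20 and ZT22 were chosen after seeing the data. The other alternatives changed scaling, pseudocount, filter, spread, time term or libraries. Results for some genes are not reported here.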

Additional observations from a re-analysis of the deposited data

Results flagged for a closer look

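For 4 genes the change between early light and late night differed between total RNA exons and nuclear introns of the same livers by a limma test of the difference itself (adjusted over 10532 genes). The difference, total exon change minus nuclear intron change on the log2 scale, was 2.11 for Nr4a1, 3.01 for A430035B10Rik, -1.82 for Acot3 and -2.61 for Lppos. Nuclear intron reads of A430035B10Rik were 0 in early light and 4 in late night, those of Lppos 4 and 0, those of Acot3 43 and 18, and those of Nr4a1 43 and 39. Fads2 came next at -1.79 (limma adjusted p = 0.0505), with intron signal in nuclei higher and messenger in total RNA lower in early light. No window compared here holds more than 3 libraries of a genotype and RNA fraction, so single libraries were not tested as outliers.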

How the results depend on the processing

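Counts of genes called by limma were small and moved with most settings. On introns, against 3 higher and 1 lower, a pseudocount 5 times larger gave 1 and 0, no filter 6 and 4, a filter 4 times stricter 1 and 0, time within the window as a covariate 1 and 0, and leaving out 1 library 0 to 2 and 0 to 5. Without ZT0 and ZT2 there were 2 and 4. Sharing the spread with Nono-/- nuclei gave 22 and 6, the exon share as a covariate 0 and 0, leaving out ZT20 and ZT22 0 and 0, and the daily curve 26 and 48. On exons, against 2 higher and 1 lower, values without scaling gave 2 and 2, the larger pseudocount 4 and 2, no filter 6 and 2, the stricter filter 0 and 0, leaving out 1 library 0 to 2 and 0 to 3, no ZT0 and ZT2 1 and 1, the shared spread 7 and 1, the time covariate 2 and 2, limma without trend 4 and 2, the exon share 1 and 1, no ZT20 and ZT22 0 and 0, and the daily curve 21 and 30. The exon minus intron count of 0 became 0 to 1 with 1 library left out. The 4 calls between total exons and nuclear introns became 0 with the larger pseudocount, with no filter and with the stricter one, 21 without ZT0 and ZT2, and 0 to 226 with 1 liver left out (226 without ZT0). For the genotype difference, 0 calls became 2 with no filter and 1 without ZT0 and ZT2, and the fit with time points as a replicate block kept 0. For named genes, 1453 of 1588 values over 96 results stayed on their side of the threshold, 50 passed only under the alternative and 85 failed only under it, with none turning sign while called. With 3 libraries a window and low intron reads for some genes, smaller changes could not be detected at this depth.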
